A study of Mus musculus with 4 samples.

Results

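Pancreatic islets of mice homozygous for floxed alleles of Tet2 and Tet3 were compared with and without the Pdx1-Cre transgene, by single-cell RNA sequencing. The Cre-negative library came from Tet2(flox/flox) Tet3(flox/flox) males without Pdx1-Cre and the Cre-positive library from males with the same floxed alleles and Pdx1-Cre, all aged 8 weeks. Each genotype had 1 library, and the number of mice behind it is unstated in the labels used here. A cell was kept if at least 500 genes were detected in it and mitochondrial transcripts took no more than 20% of its UMIs (unique molecular identifiers, which count captured transcripts), and pure hormone classes were then taken by the share of a cell's UMIs. Beta cells had at least 10% Ins1 plus Ins2 with Gcg, Sst and Ppy each under 1%. Alpha cells had at least 5% Gcg with insulin genes under 3% and Sst under 2%, and delta cells at least 5% Sst with insulin genes and Gcg each under 3%. This gave 8985 cells, 4006 Cre-negative and 4979 Cre-positive, of 15515 kept cells in both libraries and 43205 in the 4 libraries of the series. The other libraries came from male offspring, aged 8 weeks, of control mothers and of mothers with hyperglycaemia in pregnancy. Only the control offspring library is used, for levels beside those of the floxed mice.

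TET enzymes oxidise 5-methylcytosine, the first step by which methyl groups are removed from DNA, and so help to keep enhancers and promoters of lineage genes open to transcription. Pdx1-Cre drives recombination in the pancreatic epithelium, from which the beta, alpha and delta cells as well as duct and acinar cells descend, while endothelial cells and macrophages arise from other lineages. Beta cells make insulin and respond to glucose, alpha cells make glucagon, and delta cells make somatostatin, which restrains both. No library carried Pdx1-Cre without the floxed alleles, so the transgene and the loss of Tet2 and Tet3 cannot be told apart.

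The libraries differed in depth and in the mixture of hormone RNA, and no value has a replicate check. The Cre-negative library held 6421 barcodes with a median of 7373 UMIs and the Cre-positive library 10145 with a median of 5809, and 58 barcodes occurred in both. Beta cells made up 49.6% (48.3 to 50.9) of kept Cre-negative and 28.6% (27.7 to 29.5) of Cre-positive cells, alpha cells 8.43% (7.74 to 9.17) and 16% (15.3 to 16.8), and delta cells 9.51% (8.78 to 10.3) and 7.31% (6.80 to 7.85). Endothelial-like cells made up 3.39% and 17.8%, and macrophage-like cells 0.945% and 6.78%, in the same order. All intervals here are 95% intervals of counting error only. Median UMIs per cell were 10110 and 10239 in beta, 6597 and 6163 in alpha, 5665.5 and 4382 in delta, 2283 and 2060.5 in endothelial-like and 2942 and 2419 in macrophage-like cells. The share of Gcg was 16.2% of UMIs in the median Cre-negative and 28.9% in the median Cre-positive alpha cell, that of Sst 24.1% and 15.9% in delta cells, and that of the insulin genes 22.5% and 23.4% in beta cells.

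Hormone mixtures were more frequent in the Cre-positive library. Of insulin-rich cells, 0.517% (0.296 to 0.838) of Cre-negative and 10.6% (9.59 to 11.7) of Cre-positive cells had 1% or more Gcg, with median depths of 13654.5 and 19599 UMIs. Of glucagon-rich cells, 1.16% and 28.0% had 2% or more Sst. The purity rule took such cells out, 153 and 551 from the beta class, 18 and 1023 from the alpha class and 116 and 519 from the delta class. Just inside the hormone threshold (within 10% of it) lay 48 Cre-negative and 20 Cre-positive beta cells, and 47 and 61 cells lay just outside. Gcg, which endothelial cells do not make, held 0.0212% of UMIs in the median Cre-negative and 0.162% in the median Cre-positive endothelial-like cell. In beta cells at least 1 UMI of 14 endothelial markers was found in 18.3% of the Cre-negative and 32.2% of the Cre-positive library, while 0.272% and 2.08% had 0.1% or more of their UMIs from them. The whole endothelial list summed to 29.9 and 144 per 1000000 UMIs in beta cells, against 29747 and 30723 in endothelial-like cells.

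For each gene the UMIs of all cells of a class were summed within a library and given as UMIs per 1000000 (CPM). Cre-positive CPM were multiplied by a factor of 1.14 in beta, 1.25 in alpha and 1.12 in delta cells, which sets the median ratio of the genes tested to 1. Without it, that median lay at -0.19, -0.32 and -0.16 on the log2 scale, and all ratios below are relative to it. Genes at 20 CPM or more in at least 1 library and with 20 UMIs or more in both together were tested. A gene at 20 CPM or more in 1 library alone had to lie higher in that library before scaling. This rule enters all list counts below. A gene was called higher or lower at a ratio of at least 2-fold, a rule of size and not a test. A gene called higher at less than 2-fold times the factor of its class does not reach 2-fold in plain CPM. Levels named below are scaled CPM, first in the Cre-negative and then in the Cre-positive library. They come from 3′ tags and are compared between libraries, never between genes.

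In beta cells 292 of 6416 genes were called higher in the Cre-positive library (4.55%) and 172 lower (2.68%). In alpha cells 362 of 6533 were higher (5.54%) and 92 lower (1.41%), and in delta cells 386 of 6954 were higher (5.55%) and 125 lower (1.8%). In either direction this made 7.23% of the genes tested in beta, 6.95% in alpha and 7.35% in delta cells. List counts below are to be read against these shares. Under plain CPM the split turned in beta and alpha cells: 40.8% instead of 62.9% of called beta genes were higher and 43.2% instead of 79.7% of called alpha genes, while in delta cells 58.4% instead of 75.5% were. In the classes where Pdx1-Cre is not known to act, 818 of 7054 endothelial-like genes were higher (11.6%) and 484 lower (6.86%), and 950 of 6144 macrophage-like genes were higher (15.5%) and 650 lower (10.6%). Those classes held far fewer UMIs in the Cre-negative library, 569071 and 163932 against 32880283 in beta cells, and their counting intervals are wider. Endothelial-like cells also differed in markers of other cell types: 4 erythrocyte markers were all at 0 in the Cre-negative and summed to 1811 CPM in the Cre-positive library, and 10 pericyte and fibroblast markers summed to 525 and 1263 CPM. Their part in the endothelial-like ratios was not tested.

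**Figure D1:**
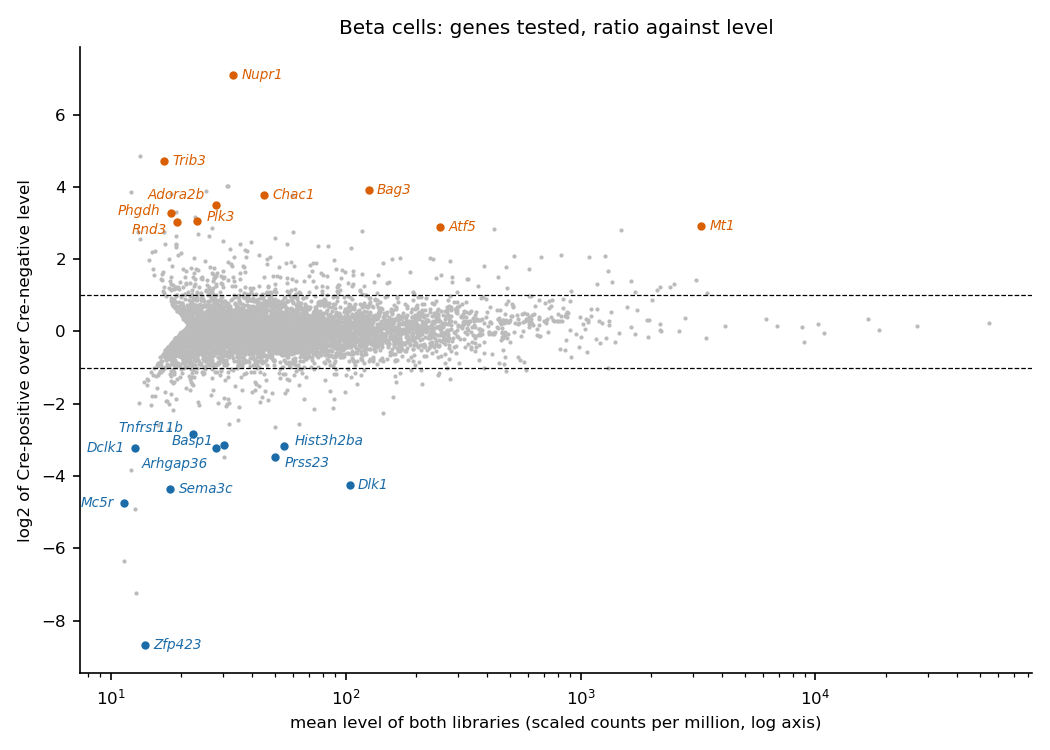
Log2 ratio of Cre-positive over Cre-negative level for each gene tested in beta cells (y axis) against its mean level in both libraries (x axis, log scale), with dashed lines at 2-fold. Orange and blue points are the 10 highest and 10 lowest named genes, from Nupr1 at 7.08 to Zfp423 at -8.67; other genes are grey.

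Tet2 and Tet3 transcripts were present in all 3 hormone classes of the Cre-positive library. Tet2 (GRCm38, chromosome 3, 133463679 to 133545139, minus strand) stood at 44.6 and 37.5 in beta cells, 1.19-fold lower (1.1 to 1.29), at 51.4 and 33.7 in alpha cells and at 50.1 and 46.2 in delta cells. Tet3 (chromosome 6, 83362373 to 83459084, minus strand) stood at 34.1 and 30.2, 15.8 and 12.9, and 46.7 and 41.1 in the same order of classes. Tet1, the family member that was not floxed, was 1.85-fold lower (1.62 to 2.12) in beta, 1.59-fold lower in alpha and 1.61-fold lower in delta cells, and 3.68-fold lower (2.07 to 6.38) in endothelial-like cells. None of these values reached 2-fold in a hormone class, but Tet1 in beta cells did so under plain CPM, at a log2 ratio of -1.07. A 3′ tag can lie outside the floxed exons, so the levels do not check the deletion. Of 18 tested genes of the TET and DNA methylation list, 0 were called in beta cells, or 3 lower under plain CPM, against 4.55% higher and 2.68% lower of all genes. In alpha cells 1 of 18 was called, Ogt, the O-GlcNAc transferase that binds TET proteins, at 48.3 and 22.8 (2.12-fold lower, 1.72 to 2.61), against 1.41% of all genes, and in delta cells 0 of 19 were called.

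The 10 highest ratios in beta cells, among genes called alike under each alternative setting and outside carry-over genes, included Nupr1, Trib3, Chac1 and Atf5 of the integrated stress response, the programme by which phosphorylated eIF2 raises translation of Atf4, which then switches on genes of amino acid supply and cell fate. Nupr1, a stress-induced chromatin protein, had 16 UMIs in Cre-negative and 1930 in Cre-positive beta cells, levels of 0.487 and 65.9 (136-fold higher, 83.2 to 238). Trib3, a pseudokinase induced by Atf4, stood at 1.25 and 32.5 (26.1-fold, 19.1 to 36.6), and Chac1, which degrades glutathione, at 6.17 and 83.8 (13.6-fold, 11.8 to 15.7). Of the 33 genes of the list 26 were tested in beta cells, 17 were higher and 2 lower, against 4.55% and 2.68% of all genes. Their median log2 ratio was 1.43, against 0 for all genes by construction. Of the 26, 9 reached the level for testing in the Cre-positive library alone and so had to lie higher, while 17 reached it in the Cre-negative library, and 8 of those were called higher. The transcription factors Atf5 (60.0 and 445, 7.42-fold), Atf3 (8.09 and 109.9, 13.6-fold), Cebpb (3.40-fold) and Atf4 itself (147 and 421, 2.85-fold) were among the higher members. So were the amino acid transporter genes Slc7a5 (3.28-fold) and Slc7a1 (2.51-fold), the translation brake Eif4ebp1 (5.33-fold) and the aminoacyl-tRNA synthetase genes Cars, Sars, Nars and Aars (3.44-, 3.11-, 2.21- and 2.18-fold). The 2 lower members were Txnip, an inhibitor of thioredoxin (794 and 376, 2.11-fold lower), and Ddit4, which restrains mTOR complex 1 (239 and 50.2, 4.76-fold lower).

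The bases before the RefSeq start (GRCm38) of 4 of these genes are shown because each holds the same ATF/CEBP composite motif, the element that Atf4 is known to bind with CEBP partners. Each line gives 200 bases, 5′ to 3′ on the gene's strand, with the motif TGATGNAA or its reverse complement in capitals. They lie at chr7:126625471-126625670, minus strand (Nupr1), chr2:119351042-119351241, plus strand (Chac1), chr1:191183334-191183533, minus strand (Atf3) and chr8:94386229-94386428, plus strand (Herpud1).
Nupr1: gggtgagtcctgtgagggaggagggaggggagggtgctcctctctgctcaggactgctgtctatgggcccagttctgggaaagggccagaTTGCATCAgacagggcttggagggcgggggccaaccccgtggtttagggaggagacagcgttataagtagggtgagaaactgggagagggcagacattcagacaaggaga
Chac1: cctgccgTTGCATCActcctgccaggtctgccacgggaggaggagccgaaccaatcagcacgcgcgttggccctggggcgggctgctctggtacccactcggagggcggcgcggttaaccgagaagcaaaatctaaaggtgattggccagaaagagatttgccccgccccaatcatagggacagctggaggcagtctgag
Atf3: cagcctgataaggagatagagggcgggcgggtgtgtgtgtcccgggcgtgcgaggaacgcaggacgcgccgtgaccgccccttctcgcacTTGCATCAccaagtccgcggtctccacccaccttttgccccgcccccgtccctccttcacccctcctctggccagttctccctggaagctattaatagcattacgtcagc
Herpud1: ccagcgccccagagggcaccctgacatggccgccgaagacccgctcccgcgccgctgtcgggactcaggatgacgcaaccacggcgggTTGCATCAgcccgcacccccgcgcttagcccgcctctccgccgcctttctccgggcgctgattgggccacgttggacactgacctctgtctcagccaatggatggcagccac
The match begins 110 bases before the start in both Nupr1 and Atf3, 112 before it in Herpud1 and 193 before it in Chac1. Trib3 holds a match 15 bases after its start. Among genes called higher in beta cells, 15 of 245 with a RefSeq promoter (250 bases before to 50 after the start, both strands) held the motif, 6.12%, against 113 of 5230 tested genes with a promoter, 2.16%. Among genes called higher in alpha cells the share was 2.70% against 2.10%. A match describes the letters of the window and does not show binding.

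More members of this list were called in beta than in alpha or delta cells, a difference between classes that was not tested. In alpha cells 6 of 17 tested members were higher and 1 lower (median 0.52), against 5.54% and 1.41% of all genes. In delta cells 3 of 18 were higher and 1 lower (median 0.29), against 5.55% and 1.8% of all genes. The list's medians in the classes that do not come from the pancreatic epithelium were 0.84 in endothelial-like and 0.44 in macrophage-like cells. In endothelial-like cells 11 of 24 members were higher and 1 lower, against 11.6% and 6.86% of all genes. In macrophage-like cells 8 of 20 were higher and 3 lower, against 15.5% and 10.6% of all genes. Summed per thinned cell, however, the list had medians of 15 Cre-negative and 14 Cre-positive UMIs in endothelial-like cells. There 36.2% of Cre-positive cells lay above the Cre-negative median. In macrophage-like cells the median was 13 in both libraries. Most cells of these classes were too shallow to be thinned and are left out of these values. Atf5 stood at 12.2 and 19.7 in alpha and 18.2 and 22.5 in delta cells, 1.62-fold (1.16 to 2.32) and 1.24-fold (0.873 to 1.75) higher and so short of 2-fold. Atf4 by contrast was higher in alpha (2.39-fold), delta (2.61-fold) and endothelial-like cells (3.26-fold, 2.82 to 3.79) as well. Chac1 was 12.5-fold higher in alpha cells (5.96 to 31.4), on 7 and 224 UMIs, though under 20 CPM before scaling in both libraries and so not among the genes tested. Nupr1 had 0 and 12 UMIs in alpha and 0 and 16 in delta cells, too few to be tested. In the control offspring library, beta cells stood between the floxed libraries, at 28.2 for Nupr1, 5.54 for Trib3, 16.2 for Chac1, 215 for Atf5 and 255 for Atf4.

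Within the beta class the summed integrated stress response list was higher in most Cre-positive cells, while single genes differed in how many cells held them. Members with high levels, such as Herpud1, weigh most in that sum, so it does not show how widely each gene was spread. With each cell thinned to 3000 UMIs, which left 2895 Cre-negative and 2638 Cre-positive beta cells, the summed UMIs of the list had a median of 7 and 13 per cell, and 89.2% of Cre-positive cells lay above the Cre-negative median. An Atf5 UMI was found in 11.6% (10.5 to 12.9) of Cre-negative and 59.3% (57.4 to 61.2) of thinned Cre-positive beta cells, and a Chac1 UMI in 1.76% and 18.4%. Nupr1 was found in 0.0691% (0.00837 to 0.249) and 12.1% (10.9 to 13.4), or in 0.510% and 29.8% before thinning. The 5% of Cre-positive beta cells richest in Nupr1 held 43.5% of its UMIs, while the corresponding share for Atf5 was 19.2%. In Cre-positive endothelial-like cells, thinned alike, a Nupr1 UMI was found in 2.73% and an Atf5 UMI in 11.6%.

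**Figure D2:**
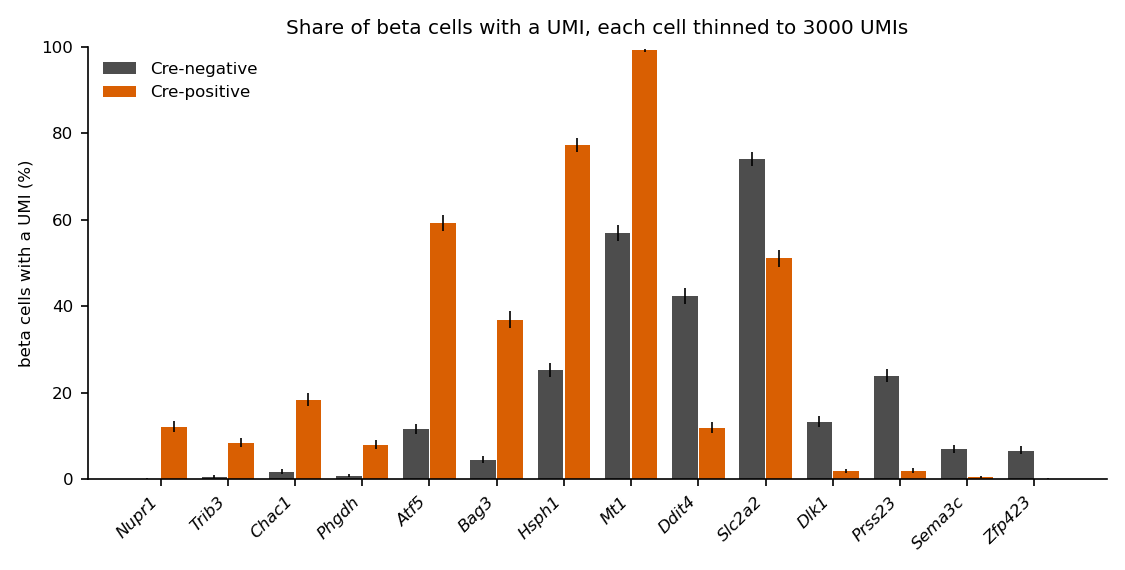
Share of beta cells with at least 1 UMI of each gene (y axis, percent) after thinning each cell to 3000 UMIs, in the Cre-negative (grey) and Cre-positive (orange) library; bars give the share and lines its exact 95% binomial interval. Atf5 stands at 11.6% and 59.3%, Prss23 at 24.0% and 2.01%.

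Of 11 tested genes of serine, asparagine and folate metabolism, 4 were called higher in beta cells and 0 lower (median 0.72), against 4.55% of all genes higher. Of the 4, 2 reached the level for testing in the Cre-positive library alone and so had to lie higher. Among the 9 members that reached it in the Cre-negative library, 2 were called higher. Phgdh, the first enzyme of serine synthesis, stood at 3.38 and 32.7 (9.70-fold, 7.96 to 11.9), the mitochondrial folate enzymes Mthfd2 at 27.4 and 142 (5.17-fold) and Shmt2 at 14.1 and 51.1 (3.61-fold), and the asparagine synthetase gene Asns at 74.1 and 189.9 (2.56-fold). In alpha cells 1 of 9 was called, Mthfd2 at 2.20-fold higher (1.62 to 3.03). It reached the level for testing there in the Cre-positive library alone, and the call was lost under plain CPM. In delta cells 0 of 6 were called. Asns was nearly level in both classes, at 35.9 and 37.9 in alpha and 28.2 and 30.0 in delta cells.

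Genes of the unfolded protein response, which expands the folding capacity of the endoplasmic reticulum, differed less. In beta cells 7 of 34 tested members were higher and 0 lower (median 0.44), against 4.55% of all genes higher. Under plain CPM 3 were higher. Of the 7, 2 reached the level for testing in the Cre-positive library alone. The 7 included the chaperones Hspa5 (1433 and 3375, 2.35-fold) and Calr (2.16-fold) and the co-chaperone Sdf2l1 (2.50-fold). In alpha cells 3 of 32 and in delta cells 1 of 33 were higher, against 5.54% and 5.55% of all genes. These counts are small and are no result about the list. Dnajb2 was called in all 3 hormone classes (2.33-, 2.98- and 2.20-fold). The degradation factor Herpud1, counted with the integrated stress response, stood at 424 and 1754 in beta cells (4.14-fold, 4.06 to 4.21), 323 and 943 in alpha cells (2.92-fold) and 492 and 912 in delta cells, short of 2-fold. Endothelial-like cells had 6 of 32 members of the unfolded protein response higher and 1 lower, against 11.6% and 6.86% of all genes. The median of those members was 0.45.

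Heat shock chaperones, which hold and refold damaged proteins in the cytosol, were higher in every hormone class. In beta cells 15 of 24 tested members were higher (median 1.18), in alpha cells 18 of 25 (median 1.29) and in delta cells 17 of 26 (median 1.93), with 0 lower in each. The shares of all genes called higher were 4.55%, 5.54% and 5.55% in the same order. Bag3, a partner of Hsp70, stood at 15.5 and 235 in beta (15.2-fold, 13.9 to 16.6), 34.2 and 656 in alpha (19.2-fold, 16 to 23.2) and 29.9 and 1514 in delta cells (50.7-fold, 41.8 to 62.1). Hsph1, a nucleotide exchange factor of Hsp70, was 7.11-, 13.3- and 18.0-fold higher, and the co-chaperone Dnaja1 4.32-, 4.67- and 9.62-fold. Delta cells had the largest of the 3 ratios for each of these genes. The near-identical genes Hspa1a and Hspa1b, between which reads can be split, were 2.67- and 2.08-fold higher in beta and 5.43- and 4.36-fold higher in delta cells. The small chaperone Hspb1 stood at 362 and 2969 in delta cells (8.20-fold).

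Outside the pancreatic lineage the summed counts and the single cells were read separately. In endothelial-like cells 18 of 26 members were higher (median 1.27) and in macrophage-like cells 13 of 23 higher and 1 lower (median 1.09). The shares of all genes called higher in these classes were 11.6% and 15.5%. Hsph1 was 29.1-fold higher in endothelial-like (18.6 to 48.4) and 8.73-fold in macrophage-like cells (6.37 to 12.3), and Bag3 6.11- and 2.82-fold. In thinned cells the summed list had a median of 34.5 UMIs in Cre-negative and 91 in Cre-positive endothelial-like cells, where 97.7% of Cre-positive cells lay above the Cre-negative median. In macrophage-like cells that median was 111 in 24 Cre-negative and 96 in 217 Cre-positive cells, and 40.6% of the latter lay above 111. The summed list was thus not higher in these thinned macrophage-like cells. Thinning left out shallow cells. It kept 24 of 56 Cre-negative and 217 of 650 Cre-positive macrophage-like cells, and 66 of 201 and 439 of 1702 endothelial-like cells. Members with high levels weigh most in the sum, so it does not show how each member differed. In the control offspring library Bag3 stood at 140.1 in beta, 817 in alpha and 1202 in delta cells, and Hsph1 at 341, 1438 and 1651. These levels were nearer to the Cre-positive than to the Cre-negative library in alpha and delta cells.

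The bases before the start of Dnaja1 (chr4:40722268-40722467, plus strand) and Hspb1 (chr5:135887719-135887918, plus strand) are shown with matches to the heat shock element GAANNTTC in capitals.
Dnaja1: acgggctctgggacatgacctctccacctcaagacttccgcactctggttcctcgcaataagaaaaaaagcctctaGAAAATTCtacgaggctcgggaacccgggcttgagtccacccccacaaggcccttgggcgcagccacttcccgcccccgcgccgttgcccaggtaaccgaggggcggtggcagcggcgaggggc
Hspb1: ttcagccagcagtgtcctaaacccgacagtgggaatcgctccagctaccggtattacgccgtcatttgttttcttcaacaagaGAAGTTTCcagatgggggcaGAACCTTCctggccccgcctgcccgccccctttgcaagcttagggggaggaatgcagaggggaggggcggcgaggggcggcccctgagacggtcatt
Dnaja1 holds 1 match, 124 bases before its start, and Hspb1 holds a pair, 117 and 97 bases before it. Promoters with this motif made up 11.8% of those of genes called higher in beta cells, 29 of 245, against 5.01% of those of all tested genes, and 12.5% against 5.04% in alpha cells. For delta cells the check is void, since 78.8% of the genes called higher had a promoter in the table.

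Genes switched on by interferon, many of which block virus replication, were mostly too low to be tested: of 39 listed, 12 were tested in beta, 13 in alpha and 19 in delta cells. Of these 8, 11 and 14 were called higher and 0 lower (medians 1.63, 1.53 and 1.78). The shares of all genes called higher were 4.55%, 5.54% and 5.55%. Of the tested members 7 in beta, 6 in alpha and 14 in delta cells reached the level for testing in the Cre-positive library alone and so had to lie higher there, so the counts and medians only describe the list. Among members that reached it in the Cre-negative library, 2 of 5 were higher in beta, 5 of 7 in alpha and 1 of 5 in delta cells. The antiviral gene Ifit1 stood at 4.35 and 29.4 in beta (6.77-fold, 5.67 to 8.14), 11.0 and 32.2 in alpha (2.92-fold) and 8.25 and 65.7 in delta cells (7.96-fold). Irf9, a subunit of the complex that carries the interferon signal to DNA, was 3.79-, 2.78- and 4.44-fold higher, and Usp18, which restrains that signal, 2.32-, 4.84- and 6.82-fold. Oasl2 had 29 and 753 UMIs in beta cells (29.2-fold, 20.1 to 43.9), and 0 and 86 in delta cells, at least 30.2-fold higher with 3 UMIs set for the 0. The master regulator Irf7 was 8.85-fold higher in alpha (4.73 to 18.7) and 7.45-fold in delta cells (4.32 to 13.8).

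The interferon genes were uneven between cells. The 5% of Cre-positive beta cells richest in Ifit1 held 57.2% of its UMIs, and an Ifit1 UMI was found in 1.04% of Cre-negative and 6.82% of Cre-positive thinned beta cells. The summed list had a median of 1 UMI in Cre-negative and 2 in Cre-positive thinned beta cells, and its 90th percentile was 2 and 5. In endothelial-like cells 20 of 30 members were higher and in macrophage-like cells 27 of 35, against 11.6% and 15.5% of all genes. The list's median log2 ratios in these classes were 1.49 and 1.56. There the median thinned cell was alike in both libraries, with 12 UMIs of the list in endothelial-like cells. The 90th percentile in thinned endothelial-like cells was 18.5 in the Cre-negative and 68.2 in the Cre-positive library. In the control offspring library Ifit1 stood at 8.60 in beta, 17.9 in alpha and 11.5 in delta cells. Among antigen presentation genes, B2m, the light chain of MHC class I, was 3.64-fold higher in beta (20.04 and 73.0) and 2.22-fold in alpha cells, and Psmb8, a subunit of the immunoproteasome, 3.42-fold in alpha and 2.16-fold in delta cells. Of that list 1 of 11, 2 of 13 and 1 of 13 tested members were higher in beta, alpha and delta cells, against 4.55%, 5.54% and 5.55% of all genes. These counts are too small to be a result about the list. List members were not screened for carry-over, and its part in the B2m and Psmb8 ratios was not tested.

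The bases before the start of Ifit1 (chr19:34640689-34640888, plus strand) are shown with matches to the interferon element AAANNGAAA, or its reverse complement, in capitals.
Ifit1: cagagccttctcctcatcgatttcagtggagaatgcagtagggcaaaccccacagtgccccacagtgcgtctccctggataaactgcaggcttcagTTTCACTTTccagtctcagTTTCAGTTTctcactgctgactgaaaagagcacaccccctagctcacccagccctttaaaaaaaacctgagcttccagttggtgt
The matches begin 104 and 85 bases before the start. Of promoters of genes called higher in beta cells 8.98% held this motif, against 7.09% of those of all tested genes. In alpha cells the share was 7.43% for higher genes and 13.3% for lower genes, 10 of 75, against 7.29% for all.

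**Figure D3:**
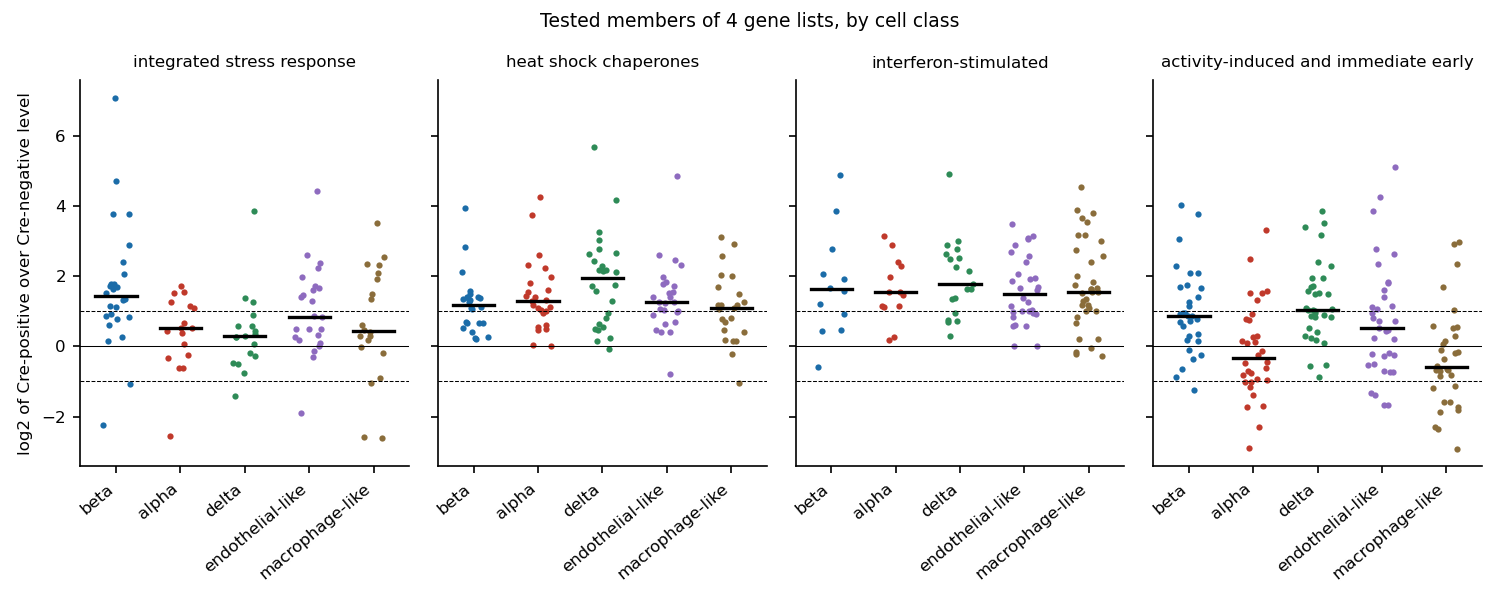
Log2 ratio of Cre-positive over Cre-negative level (y axis) for the tested members of 4 gene lists in 5 cell classes (x axis); each point is a gene, the thick line the median, and dashed lines mark 2-fold. The medians of heat shock chaperones lie between 1.09 and 1.93 in all 5 classes, while those of the activity-induced list lie between -0.60 and 1.03.

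Activity-induced and immediate early genes, which answer within minutes to calcium, growth factors or stress, had 12 of 31 tested members higher and 1 lower in beta cells (median 0.87), 19 of 33 higher and 0 lower in delta cells (median 1.03), and 6 of 32 higher and 8 lower in alpha cells (median -0.34). Of the higher members 7 in beta, 6 in delta and 4 in alpha cells reached the level for testing in the Cre-positive library alone. The shares of all genes were 4.55% higher and 2.68% lower in beta, 5.55% and 1.8% in delta, and 5.54% and 1.41% in alpha cells. Fosb, an AP-1 subunit, stood at 484 and 2069.8 in beta cells (4.28-fold higher) and 574 and 5123 in delta cells (8.93-fold higher). Fos stood at 1426 and 2608 in beta cells, 1853 and 3776 in delta cells (2.04-fold higher) and 2946 and 899 in alpha cells (3.28-fold lower, 3.18 to 3.37). Dusp1, which switches off MAP kinases, was 7.44-fold lower in alpha cells (503 and 67.7, 6.78 to 8.16) and the transcription factor Egr4 4.87-fold lower, while Egr4 was 4.89-fold higher in delta cells. Fosl2 was higher in all 3 classes, at 16.4-, 9.93- and 10.5-fold. In endothelial-like cells 13 of 35 members were higher and 4 lower (median 0.51), against 11.6% and 6.86% of all genes. In macrophage-like cells 5 of 32 were higher and 10 lower (median -0.60), against 15.5% and 10.6% of all genes. Among the lower members Fos was 3.20-fold lower in endothelial-like and 4.91-fold lower in macrophage-like cells, and Dusp1 2.51- and 3.02-fold lower. Nr4a1, an orphan nuclear receptor of activated cells, was 4.24-fold higher in beta (199 and 844) and 2.86-fold in delta cells, and stood at 520.4 and 478 in alpha cells.

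Metallothioneins, small proteins that bind zinc and copper, were higher in each class. Mt1 stood at 768 and 5773 in beta (7.52-fold, 7.42 to 7.62), 137 and 499 in alpha (3.65-fold) and 77.1 and 363 in delta cells (4.71-fold), and Mt2, its close paralog, was 7.02-, 4.29- and 8.28-fold higher. Mt1 was 3.97-fold higher in endothelial-like and 2.87-fold in macrophage-like cells, and control offspring beta cells stood at 2539.5. Heme oxygenase Hmox1 was 5.21-fold higher in beta, 2.31-fold in alpha and 7.38-fold in delta cells. With Gpx4, which protects membrane lipids from peroxidation (2.70-fold), these made 4 of 27 members of the antioxidant list higher in beta cells, and Gpx3, the secreted glutathione peroxidase, was the 1 lower member (43.8 and 21.5, 2.04-fold). In alpha cells 5 of 27 were higher and 1 lower, and in delta cells 5 of 26 higher and 0 lower. Of all genes 4.55%, 5.54% and 5.55% were higher in beta, alpha and delta cells. Of the higher members 2 in beta and 3 in delta cells reached the level for testing in the Cre-positive library alone.

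Cytosolic ribosomal protein genes had 8 of 80 tested members higher in beta, 6 of 80 in alpha and 5 of 80 in delta cells, against 4.55%, 5.54% and 5.55% of all genes, with 0 lower and medians of 0.42, 0.22 and 0.29. The counts in alpha and delta cells lie near those shares and are no result about these genes. Rpl28, of the large subunit, stood at 114 and 441 in beta (3.87-fold), and was 3.59-fold higher in alpha, 3.53-fold in delta, 3.44-fold in endothelial-like and 2.63-fold in macrophage-like cells. Rps14, of the small subunit, was 3.28-, 3.67-, 3.16-, 3.39- and 3.44-fold higher in the same order. These ratios lay between 2.63 and 3.87 in the 5 classes, inside and outside the pancreatic lineage, and under plain CPM the median of the cytosolic ribosomal proteins in alpha cells turned to -0.10.

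The 10 lowest ratios in beta cells by the same rule were Zfp423, Mc5r, Sema3c, Dlk1, Prss23, Dclk1, Arhgap36, Hist3h2ba, Basp1 and Tnfrsf11b. Zfp423, a zinc finger factor of the adipose lineage (chromosome 8, 87661810 to 87959595, minus strand), had 915 UMIs in Cre-negative and 2 in Cre-positive beta cells (407-fold lower, 112 to 3368). Dlk1, an imprinted relative of Notch ligands (chromosome 12, 109452823 to 109463336, plus strand), stood at 197 and 10.5 (18.8-fold lower, 16.8 to 21.2), the serine protease gene Prss23 at 91.5 and 8.30 (11.0-fold lower, 9.66 to 12.6) and the secreted guidance cue Sema3c at 34.3 and 1.67 (20.5-fold lower, 15.4 to 27.8). Mc5r, a melanocortin receptor, was 26.8-fold lower (17.9 to 42.1), and the microtubule-binding kinase Dclk1 9.31-fold, Arhgap36, an antagonist of protein kinase A, 9.29-fold, the histone gene Hist3h2ba 8.91-fold, the membrane protein gene Basp1 8.85-fold and the decoy receptor Tnfrsf11b, osteoprotegerin, 7.17-fold lower. The tight junction gene Cldn2, outside that rule, was 14.2-fold lower, and its relative Cldn4 5.55-fold higher. Of 14 tested genes of axon guidance and adhesion, 5 were lower and 1 higher in beta cells (median -0.62), against 2.68% and 4.55% of all genes. Of the 14, 4 reached the level for testing in the Cre-negative library alone and so had to lie lower before scaling. The 1 higher member reached it in the Cre-positive library alone. Of 28 genes that mature beta cells keep low or that mark progenitors, 5 reached the level for testing and 3 were lower (median -1.08): Dlk1, the tetraspanin gene Cd81 (311 and 113, 2.75-fold) and Sox4, a factor of endocrine progenitors (259 and 123, 2.11-fold). Of the 5, 2 reached that level in the Cre-negative library alone, so the count and median of both lists only describe them.

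The control offspring library, whose labels name no floxed allele, was low for each of these 10 genes too. Zfp423 stood at 0.190, Dlk1 at 1.24, Prss23 at 3.76, Sema3c at 1.42, Mc5r at 3.04, Dclk1 at 1.26, Arhgap36 at 2.52, Hist3h2ba at 10.7, Basp1 at 1.1 and Tnfrsf11b at 5.86 in its beta cells. The Cre-negative library was thus the high one of the 3. For the 10 highest ratios the order was different, with the control offspring level between the floxed libraries for each gene, for example 140.1 for Bag3, 15 for the adenosine receptor gene Adora2b against 4.56 and 51.5, 30.6 for the stress kinase gene Plk3 against 4.99 and 41.4, and 18.6 for the small GTPase gene Rnd3 against 4.20 and 34.2. The labels used here give no strain for the offspring or the floxed mice, so genotype and the other differences between these mice cannot be told apart.

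**Figure D4:**
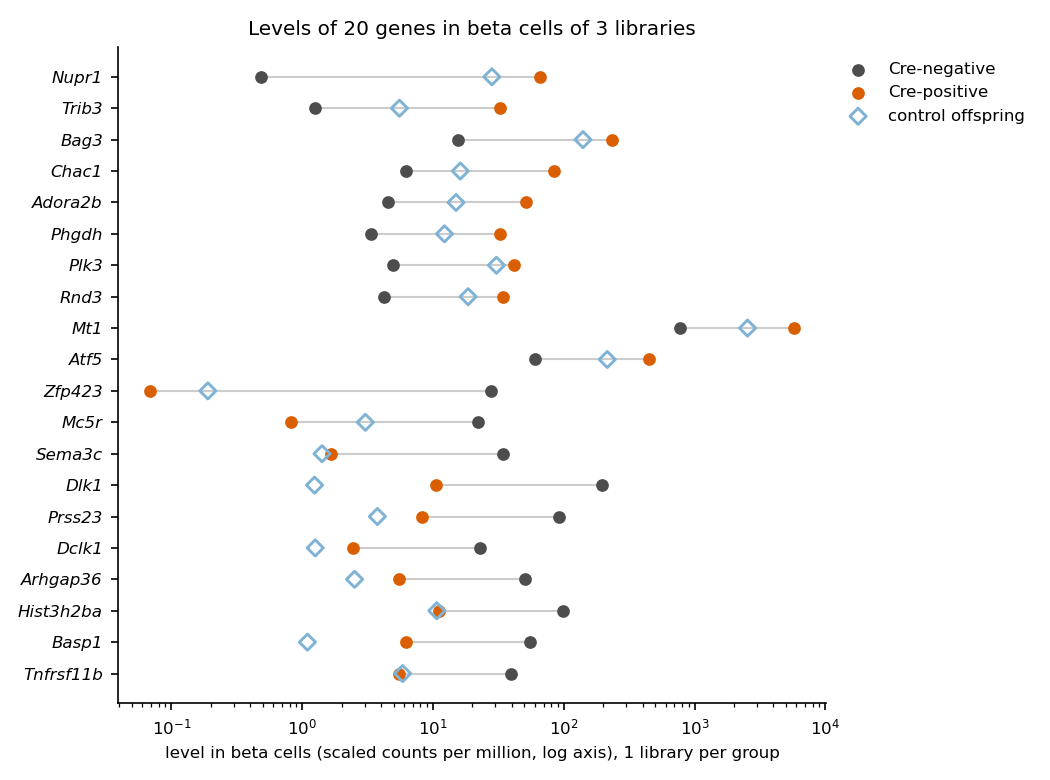
Level of the 10 highest and 10 lowest named genes in beta cells (x axis, scaled CPM on a log scale) in the Cre-negative (grey), Cre-positive (orange) and control offspring (open diamond) library, 1 library each. Control offspring diamonds lie between the other points for the 10 genes from Nupr1 to Atf5 and far below the Cre-negative point for the 10 from Zfp423 to Tnfrsf11b.

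Shares of cells with a UMI depend on depth and level as well as on how many cells use a gene. A Dlk1 UMI was found in 13.4% (12.1 to 14.7) of thinned Cre-negative and 1.90% (1.41 to 2.49) of Cre-positive beta cells, against 0.228% of Cre-positive endothelial-like cells, and the richest 5% of Cre-negative cells held 82.5% of its UMIs. A Prss23 UMI was found in 24.0% and 2.01%, with 24.7% of its Cre-negative UMIs in the richest 5%. Zfp423 was found in 6.63% and 0.0379%. In delta cells Zfp423 (49 and 1 UMIs) and Prss23 (55.8 and 6.30, 8.85-fold lower) lay the same way as in beta cells, whereas Dlk1 lay the other way at 21.1 and 263 (12.5-fold higher, 9.85 to 16.1). Control offspring delta cells had Dlk1 at 69.6. Meg3 and Mirg, maternally expressed RNAs of the same imprinted cluster, were 2.10- and 2.56-fold higher in delta cells, and stood at 1137 and 1341, and 31.9 and 47.1, in beta cells. Of the imprinted genes tested, 0 of 21 were higher and 3 lower in beta, 2 of 21 higher and 0 lower in alpha, and 5 of 25 higher and 1 lower in delta cells. Of all genes 4.55%, 5.54% and 5.55% were higher and 2.68%, 1.41% and 1.8% lower, in the same order. The 2 higher members in alpha cells reached the level for testing in the Cre-positive library alone, and 2 members in beta cells in the Cre-negative library alone. In endothelial-like cells Prss23 stood at 142 and 180.4 and Zfp423 had 3 and 60 UMIs, so neither was lower there.

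Of 21 tested beta-cell transcription factors 0 were called, against 7.23% of all genes, too few genes for that count to say anything particular about them, with a median of 0.30 and a range of -0.53 to 0.95. Pdx1 stood at 105 and 142, Nkx6-1 at 643 and 789 and Mafa at 435 and 585. Ucn3, a peptide of mature beta cells, was 3.50-fold higher (173 and 605, 3.39 to 3.60), and control offspring beta cells stood at 1086. Slc2a2, the glucose transporter GLUT2 (chromosome 3, 28697903 to 28731359, plus strand), stood at 658 and 309.9 (2.12-fold lower, 2.07 to 2.18) against 860.3 in control offspring, so that here the Cre-positive library was the low one of the 3. A Slc2a2 UMI was found in 74.1% (72.5 to 75.7) of Cre-negative and 51.1% (49.2 to 53.1) of Cre-positive thinned beta cells, against 1.52% and 2.05% of endothelial-like cells. Glp1r, the GLP-1 receptor, stood at 613 and 331, short of 2-fold but past it in plain CPM (291 in the Cre-positive library), with control offspring at 747.

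Counts in the lists of electrical and receptor signalling in beta cells are read against 7.23% of all genes called in either direction. Some members reached the level for testing in 1 library alone, which fixed their direction before scaling. In the Cre-negative library alone these were 2 glucose sensing, 1 receptor, 2 calcium and 2 exocytosis genes, Itpr1 among them. In the Cre-positive library alone they included 2 of the 4 higher receptor genes, among them Adora2b, and the 1 higher exocytosis gene. In the glucose sensing and excitability list 1 of 20 was higher and 2 lower: the cation channel Trpm5 (36.9 and 96.5, 2.62-fold higher), Slc2a2, and the sodium channel Scn3a (60.6 and 19.1, 3.18-fold lower). Of 26 receptor and cAMP genes 4 were higher, Adora2b (11.3-fold, 9.54 to 13.4), the galanin receptor Galr1 (2.20-fold), the fatty acid receptor Ffar1 (2.09-fold) and Rgs4 (2.02-fold), and the purinergic receptor P2ry1 was lower (247 and 70.4, 3.51-fold). Of 19 calcium store and buffer genes 3 were lower and 0 higher: the calcium release channel Itpr1 (57.1 and 13.3, 4.28-fold, 3.84 to 4.79), the buffer Calb1 (104 and 28.5, 3.66-fold) and the calcium pump Atp2b4 (3.15-fold). Control offspring beta cells stood at 16.2 for Itpr1, 13.3 for Calb1 and 109.7 for P2ry1. Proinsulin processing and granule genes had 1 of 27 lower, Cadps, which primes granules for release (99.3 and 48.1, 2.06-fold), and exocytosis genes added Stx4a, a plasma membrane SNARE, as 1 higher (2.71-fold). Under plain CPM the glucose sensing list had 1 higher and 3 lower, the receptor list 1 higher and 3 lower, and the calcium list 0 higher and 5 lower.

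Insulin signalling and lipid metabolism were covered by 1 list each. Irs2, the insulin receptor substrate that supports beta-cell survival, was higher in beta (61.4 and 227, 3.70-fold), alpha (3.19-fold) and delta cells (4.04-fold). Ddit4 was lower in each, at 4.76-, 5.89- and 2.65-fold, with 5.94-fold in macrophage-like cells (3.63 to 9.56), while it stood at 230.2 and 261 in endothelial-like cells. Of 27 genes of insulin, IGF and mTOR signalling 2 were higher and 3 lower in beta cells (median -0.03), against 7.23% of all genes called. Of the 27, 4 reached the level for testing in the Cre-negative library alone and 1 in the Cre-positive library alone. Fasn, fatty acid synthase, stood at 51.0 and 12.9 (3.94-fold lower) and was the 1 of 19 lipid genes called in beta cells. Fasn reached the level for testing there in the Cre-negative library alone. Lpl, lipoprotein lipase, was 2.79-fold lower in alpha (936 and 335) and 5.24-fold lower in delta cells (86.5 and 16.5), and stood at 81.6 and 101 in beta cells. In delta cells 2 of 22 lipid genes were higher, among them the elongase gene Elovl5, and 3 lower, Lpl and the desaturases Fads1 and Fads2, against 7.35% of all genes called. Of the 22, 5 reached the level for testing in the Cre-negative library alone, Lpl among them, and so had to lie lower before scaling. Another 2 reached it in the Cre-positive library alone, so the count only describes the list. Glycolysis and citric acid cycle genes had 1 of 32 called in beta cells and 0 of 32 in both alpha and delta cells, and mitochondrially encoded genes 0 of 12 in each. The shares of all genes called were 7.23% in beta, 6.95% in alpha and 7.35% in delta cells. Counts this small are no result about either list.

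In alpha cells the 10 highest named ratios included the chaperone genes Bag3 and Hsph1 together with Slc5a3, Fhl2, Eppk1, Dusp8, Zyx and Anpep. Slc5a3, the carrier of the osmolyte myo-inositol, stood at 7.07 and 135 (19.2-fold higher, 12.9 to 29.7). The LIM-domain gene Fhl2 was 12.5-fold, the cytolinker Eppk1 12.3-fold and the focal adhesion gene Zyx 10.4-fold higher. Dusp8, a phosphatase of stress kinases, was 11.0-fold and the surface peptidase Anpep 9.52-fold higher. Control offspring alpha cells stood at 58.7 for Eppk1 against 4.52 and 55.7, and at 46.3 for Zyx against 10.5 and 108. Tnfrsf12a, the receptor of the cytokine TWEAK, was 8.30-fold higher, and the cell cycle inhibitor Cdkn1a stood at 54.0 and 173 (3.21-fold). Of the p53 target and apoptosis genes 4 of 16 were higher in alpha cells, against 5.54% of all genes. Of the 4, 2 reached the level for testing in the Cre-positive library alone.

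The lowest ratios in alpha cells were those of Gabrg1, a subunit of the GABA-A receptor, at 29.7 and 2.98 (9.97-fold lower, 6.48 to 15.8), Clip4 (8.50-fold), Ppp2r2c, a regulatory subunit of phosphatase PP2A (8.32-fold), and Edil3, a secreted ligand of integrins (63.9 and 7.72, 8.28-fold, 6.31 to 11.0). Fam184b was 7.47-fold, Dab1, an adaptor of reelin signalling, 5.02-fold and Adcy5, an adenylyl cyclase, 4.88-fold lower. As with the low genes of beta cells, control offspring alpha cells were low, at 1.82 for Gabrg1, 2.42 for Clip4, 2.12 for Ppp2r2c and 5.75 for Edil3. Pou3f4, a transcription factor of alpha cells, stood at 57.1 and 26.5 (2.16-fold lower) and was the 1 of 16 tested alpha and delta transcription factors called there. That count lies near the 6.95% of all genes called in alpha cells and is no result about the list.

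A few large ratios in alpha cells came from few cells. Vip, a neuropeptide gene also found in pancreatic polypeptide cells, had 3 UMIs in Cre-negative and 1151 in Cre-positive alpha cells (149.6-fold higher, 51.1 to 727), all from 0.6% and 1.43% of cells. The Vip log2 ratio in alpha cells was 2.36 instead of 7.23 where Gcg of at least 10% was required. Npy, another neuropeptide, had 0 and 542 UMIs, at least 70.5-fold higher, from 1.43% of Cre-positive cells, and the Npy log2 ratio in alpha cells was 1.93 instead of 6.14 under the same rule. Cells with 1% or more Ppy, the pancreatic polypeptide gene, made up 3.6% of Cre-negative and 11.6% of Cre-positive alpha cells, but without them both ratios were as large, at 7.37 for Vip and 6.26 for Npy. The imprinted genes Nnat (14.2-fold) and Peg10 (9.33 and 56.4, 6.05-fold) and the surface marker Cd24a (6 and 239 UMIs, 15.5-fold) were higher as well. Endothelial-like cells held Cd24a at 1149 and 1631. The Cd24a log2 ratio in alpha cells was 2.20 instead of 3.96 without cells holding any endothelial, macrophage or acinar marker UMI.

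In delta cells Ppp1r17, an inhibitor of protein phosphatases (chromosome 6, 56017497 to 56032689, plus strand), had 1 and 217 UMIs, levels of 0.285 and 65.1 (229-fold higher, 40.6 to 9077). Control offspring delta cells stood at 73.2, close to the Cre-positive level. The surface antigen Gpa33 was 25.1-fold higher (1.42 and 35.7, control offspring 26.1), the homeobox repressor Tgif1 24.8-fold and Serpinh1, the collagen chaperone, 18.1-fold. Atf3 was 14.4-fold and Ccn1, a matrix protein of the immediate early group, 11.4-fold higher. The delta class also held more Ppy RNA: 1.42% of Cre-negative and 22.3% of Cre-positive cells had 1% or more, and its part in these ratios was not tested.

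Mdga2, a synaptic adhesion gene, had the lowest named ratio in delta cells, at 28.2 and 1.80 (15.7-fold lower, 6.94 to 43.7), followed by the copine gene Cpne7 at 55.2 and 4.50 (12.3-fold, 7.26 to 22.3). Prss23, Pianp (5.90-fold), the membrane repair gene Myof (5.69-fold), Itih5 of the hyaluronan matrix (5.40-fold) and the glypican Gpc3 (5.22-fold) came next. Pde3a, a phosphodiesterase of cAMP, was 4.85-fold, Arap2 4.52-fold and Pcsk1, the prohormone convertase, 4.46-fold lower (85.7 and 19.2, 3.40 to 5.94). In beta cells Pcsk1 stood at 266 and 167, short of 2-fold. Control offspring delta cells had Mdga2 at 1.05, Cpne7 at 6.80 and Pcsk1 at 30.3. Of delta-cell regulators, Nkx2-2 (108 and 249.6, 2.31-fold), Rfx2 (3.30-fold) and Nr5a2 (3.65-fold) were higher.

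Across beta, alpha and delta cells together, the genes whose smallest ratio was largest were Bag3, Slc5a3, Hsph1, Srf and Fhl2 upward, and downward they included Ddit4, Rflna, Tspan2 and Klhl42. Srf, the transcription factor that links actin to gene activity, was 6.70-, 7.43- and 7.47-fold higher in beta, alpha and delta cells, against 1.54-fold in endothelial-like cells (0.846 to 3.06). Slc5a3 was 7.23-, 19.2- and 11.0-fold, and 3.27-fold in endothelial-like cells (1.75 to 6.93). The actin regulator Rflna was 4.12-, 2.48- and 3.41-fold lower, and Klhl42, a ubiquitin ligase adaptor, 3.97-, 2.50- and 2.15-fold. The tetraspanin gene Tspan2 was 2.38-, 2.92- and 2.35-fold lower. In endothelial-like cells Klhl42 was 4.48-fold lower too (1.95 to 9.96), on 12 and 17 UMIs.

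**Figure D5:**
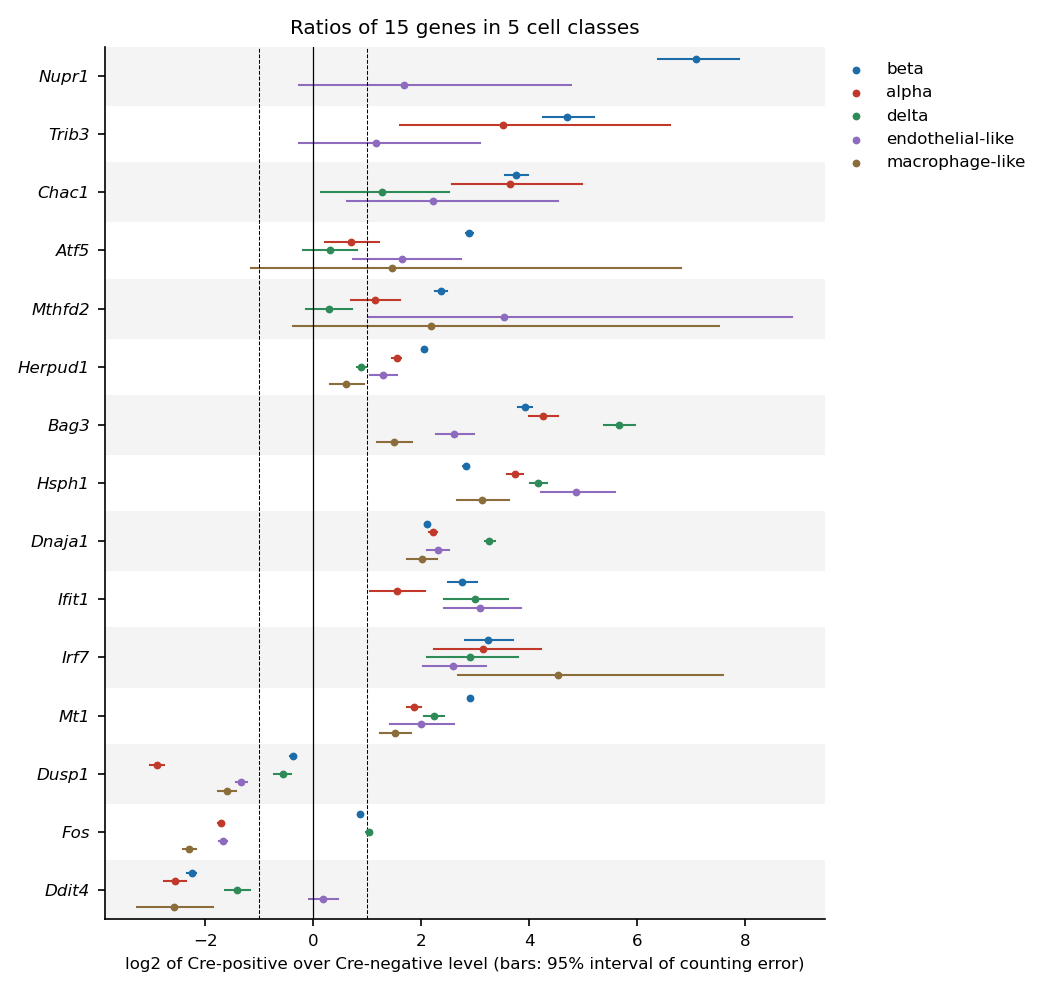
Log2 ratio of Cre-positive over Cre-negative level (x axis) of 15 genes in beta, alpha, delta, endothelial-like and macrophage-like cells (colours), with lines for the 95% interval of counting error and dashed lines at 2-fold; classes with a count of 0 or under 20 UMIs are not drawn. Bag3, Hsph1, Dnaja1 and Mt1 lie above 2-fold in all 5 classes, and Atf5 lies at 2.89 in beta against 0.70 in alpha and 0.31 in delta cells.

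CpG content was counted in the promoters of called genes. The median was 20 CpG per 300 bases for genes called higher in beta cells, where 245 of 292 had a promoter in the RefSeq table, against 23 for all 5230 tested genes with one. In alpha cells it was 23 for higher and 17 for lower genes (75 of 92 with a promoter), against 23 for all. The check is void for genes lower in beta cells and for both directions in delta cells, where 76.7%, 78.8% and 74.4% had a promoter. No methylation was measured in these libraries.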

How the data were processed

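The deposited files held filtered matrices of UMI counts per gene and cell, whole numbers as deposited and not normalized, from libraries of the SeekOne MM microwell system per the labels' protocols. The submitters' processing notes name Cell Ranger, Seurat and mm10, without versions or roles, and the counting settings are unstated. The 2 floxed libraries held 52489846 and 84146592 UMIs. UMIs were summed per class and library, given as CPM, and the Cre-positive to Cre-negative ratio was divided by its median over tested genes (numpy 2.4.6, scipy 1.17.1, pandas 2.3.3). Exact conditional intervals at 95% cover counting error within these 2 libraries, not mice or preparations. With 1 library a genotype no test was possible. Control offspring CPM were scaled to the Cre-negative library on their own median.

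Doublets were treated by the hormone purity rule, and as an alternative by leaving out the 6% of cells with the highest Scrublet scores (scanpy 1.11.5). Endothelial-like and macrophage-like cells had at least 0.5% of UMIs from 14 and 13 markers, with low hormone shares. The genes named were, in each class, the 10 highest and 10 lowest ratios called in the same direction under each alternative scaling, depth, doublet, purity, quality and carry-over setting, the 5 genes with the largest smallest change over the 3 hormone classes in each direction, called members of the gene lists, and Tet1, Tet2 and Tet3. Hormone genes, unnamed gene models and genes under 10% of their level in another class of the same library were left out of the ranked sets. List members were not screened by that 10% rule. It marked 24 of the 292 genes called higher in beta cells and 40 of the 362 called higher in alpha cells. A few list members that were not called are given as values. A few genes that the rule names are not reported here. Members and lists were chosen with earlier results of these data known. The ratio script was tested on simulated data. Gene positions come from GENCODE vM21 (GRCm38), which matched 32158 of 32285 genes, and promoter sequences from RefSeq for GRCm38.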

Additional observations from a re-analysis of the deposited data

How the results depend on the processing

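The counts of genes at 2-fold moved with the filter, the fold rule and the scaling. With no level minimum, 1341 genes were higher and 959 lower in beta, 1210 and 502 in alpha, and 835 and 480 in delta cells. At 50 CPM or more they were 143 and 88, 175 and 35, and 204 and 45, and at 1.5-fold they were 771 and 622, 835 and 426, and 905 and 563. Under plain CPM 311 genes were lower in beta cells, 223 higher and 293 lower in alpha cells and 210 lower in delta cells. In CPM without hormone and mitochondrial genes 220 were higher and 272 lower in beta cells, 150 lower in alpha cells, and 255 higher and 318 lower in delta cells, so that the split turned in beta and delta cells. In thinned cells 141 were lower in alpha and 199 in delta cells, and without cells carrying markers of other cell types 298 were lower in delta cells. The causes of these shifts were not tested. Of 373 called values of named genes, 313 kept 2-fold under plain CPM, 324 in CPM without hormone and mitochondrial genes, 357 with the mean of cell shares, 350 in thinned cells, 368 without the highest doublet scores, 353 with stricter hormone thresholds and 372 with mitochondrial UMIs of at most 10%. Without cells carrying other markers 339 of 365 did, and 115 of 116 in alpha cells with Ppy under 1%, an alternative chosen after seeing the data. None turned direction under these settings. The 10 highest and 10 lowest genes of each class had been picked because they kept their call under these settings. Only the mean of cell shares and the Ppy setting took no part in that choice. For those genes the other counts were fixed in advance and do not measure stability. No paired analysis was possible because each group had 1 library, and leaving out a replicate was not possible for the same reason. Depth limits endothelial-like and macrophage-like values most, with 569071 and 163932 Cre-negative UMIs.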
